A study of Mus musculus with 12 samples.

Results

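The genes described here are 9 genes of peroxisomal beta oxidation and the traffic around it, out of 22180 named genes measured in mouse liver. They are Ehhadh, Hsd17b4, Acaa1a, Acaa1b, Crat, Crot, Pex11a, Abcd2 and Abcd3, chosen by name from the platform annotation, and all 9 had a probe set. Crat had 2 probe sets, of which the brighter was used, and each of the other members had 1. RNA came from whole liver of male C57BL6 mice, with 1 Affymetrix array for each of 12 samples. Feeding began at 6 weeks of age, lasted 12 weeks and ended at 18 weeks of age, and food was freely available in all groups. The low-fat control group (3 arrays) ate a diet with 10% of its energy from fat. The low-fat MSX group (3 arrays) ate that diet with 0.5% (w/w) of MSX, a maple syrup extract enriched in phenols. The high-fat control group (3 arrays) ate a diet with 45% of its energy from fat, and the high-fat MSX group (3 arrays) ate the high-fat diet with the same share of extract.

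Peroxisomal beta oxidation shortens fatty acids that mitochondria handle poorly, such as very long-chain, branched and dicarboxylic acids. Acyl-CoA substrates enter through ABC transporters of the peroxisomal membrane, pass through an oxidase, a bifunctional enzyme and a thiolase, and the shortened chains leave as carnitine esters or free acids for the mitochondria. In rodent liver many genes of this pathway are known targets of the fatty acid receptor PPAR alpha, and drugs that activate it make peroxisomes multiply. Ehhadh and Hsd17b4 encode the bifunctional enzymes, which act on opposite stereoisomers, and Acaa1a and Acaa1b encode thiolases. Crat and Crot encode the carnitine acetyltransferase and the carnitine octanoyltransferase, Pex11a a membrane protein of peroxisome elongation and division, and Abcd2 and Abcd3 a pair of the transporters.

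Promoter sequences are shown for Ehhadh and Pex11a, the members that passed the test in at least 1 comparison, and for the thiolase genes Acaa1a and Acaa1b, which are paralogs on the same chromosome. The sequences are RefSeq's (GRCm38.p6), in windows of 300 bases that lie mostly before the gene's start. Of the 9 members, 6 matched the table by symbol, with 7 windows (2 of Abcd3); Hsd17b4, Crat and Abcd2 had no entry. Capitals mark GGGCGG (the GC box) and CCAAT (the CCAAT box) on either strand, and in CCAATTGG the matches on both strands overlap.
Ehhadh, chr16:21787785-21788084, strand -: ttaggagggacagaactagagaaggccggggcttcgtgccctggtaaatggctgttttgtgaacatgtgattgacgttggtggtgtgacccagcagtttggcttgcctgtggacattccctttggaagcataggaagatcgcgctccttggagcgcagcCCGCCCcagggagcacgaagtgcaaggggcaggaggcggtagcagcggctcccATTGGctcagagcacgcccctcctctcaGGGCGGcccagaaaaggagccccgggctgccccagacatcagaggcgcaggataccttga
Pex11a, chr7:79743082-79743381, strand -: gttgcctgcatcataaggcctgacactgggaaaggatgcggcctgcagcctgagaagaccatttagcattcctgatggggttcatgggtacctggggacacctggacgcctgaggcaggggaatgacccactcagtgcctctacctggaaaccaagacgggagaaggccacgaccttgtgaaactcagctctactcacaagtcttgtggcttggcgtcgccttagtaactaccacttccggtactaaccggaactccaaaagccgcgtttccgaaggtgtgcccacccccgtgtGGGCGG
Acaa1a, chr9:119341044-119341343, strand +: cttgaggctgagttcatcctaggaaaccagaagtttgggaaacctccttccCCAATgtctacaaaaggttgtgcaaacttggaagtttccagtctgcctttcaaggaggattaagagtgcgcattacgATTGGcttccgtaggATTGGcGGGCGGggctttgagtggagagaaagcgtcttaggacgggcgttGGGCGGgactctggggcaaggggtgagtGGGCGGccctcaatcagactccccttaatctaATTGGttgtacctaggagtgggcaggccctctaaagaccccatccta
Acaa1b, chr9:119157044-119157343, strand -: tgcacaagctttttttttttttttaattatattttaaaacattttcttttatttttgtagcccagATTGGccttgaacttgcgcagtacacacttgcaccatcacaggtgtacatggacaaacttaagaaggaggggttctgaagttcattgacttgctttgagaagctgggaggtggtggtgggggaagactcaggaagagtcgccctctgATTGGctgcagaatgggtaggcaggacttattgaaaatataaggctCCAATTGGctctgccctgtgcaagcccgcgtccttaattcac
GGGCGG was found on either strand in 35.7% and CCAAT in 37.4% of 32851 promoter windows of this length. The Ehhadh window held 2 matches of GGGCGG and 1 of CCAAT, that of Acaa1a 3 and 4, and that of Acaa1b 0 and 4. The Crot window held 2 and 1, that of Pex11a 1 and 0, and both windows of Abcd3 held 0 and 0. AGGTCA, the short element of nuclear receptors, stood in 16.3% of all windows, and its direct repeat AGGTCANAGGTCA, the form that PPAR alpha is known to bind, in 0.0396%. Neither was present in the windows of the 6 members with a sequence. The windows of Acaa1a and Acaa1b were identical at 149 of 278 aligned positions (53.6%), with gaps left out. No unrelated windows were aligned for comparison, so the share does not show whether these windows are more alike than others.

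Values are log2 probe set summaries, so that a difference of 1 is a doubling, and levels are compared within a gene only. Array medians lay between 4.68 and 4.75, and the correlation of any pair of arrays lay between 0.973 and 0.984. Most hepatocyte genes were high throughout, and Alb, serum albumin, lay between 13.88 and 13.95. Ass1, another of the 14 hepatocyte markers, lay lower, between 6.01 and 7.03. The median deviation of these 14 markers from their means over the 12 arrays stayed between −0.07 and 0.03. Adipoq, the adipocyte hormone adiponectin, lay between 2.23 and 2.93, and the summed linear level of 6 adipocyte markers was 212 to 224 in low-fat control, 213 to 245 in low-fat MSX, 243 to 261 in high-fat control and 211 to 248 in high-fat MSX. Macrophage and Kupffer cell markers (12 genes) summed to 2120 to 3156 in low-fat control, 2504 to 3417 in low-fat MSX, 1751 to 4271 in high-fat control and 2961 to 3183 in high-fat MSX. Their part in the results below was not tested.

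On the low-fat diet with extract, 8 of the 9 members had their lowest group mean, and the exception was Abcd3. For Abcd2 this rests on low-fat MSX replicate 3, as described with its values. Ehhadh fell, and the lower values of the other members did not pass the test over all genes. The highest group mean lay in high-fat control for 5 members (Hsd17b4, Acaa1a, Crot, Pex11a and Abcd2), in low-fat control for 3 (Ehhadh, Acaa1b and Crat) and in high-fat MSX for Abcd3. With the 4 means of each gene put in order, 19 of 27 neighbouring pairs of groups overlapped in their arrays. Neither this count nor those of the lowest and highest means were made over all genes, so no share stands beside them. In whole liver, fewer cells of a type and less RNA per cell cannot be told apart.

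**Figure D1:**
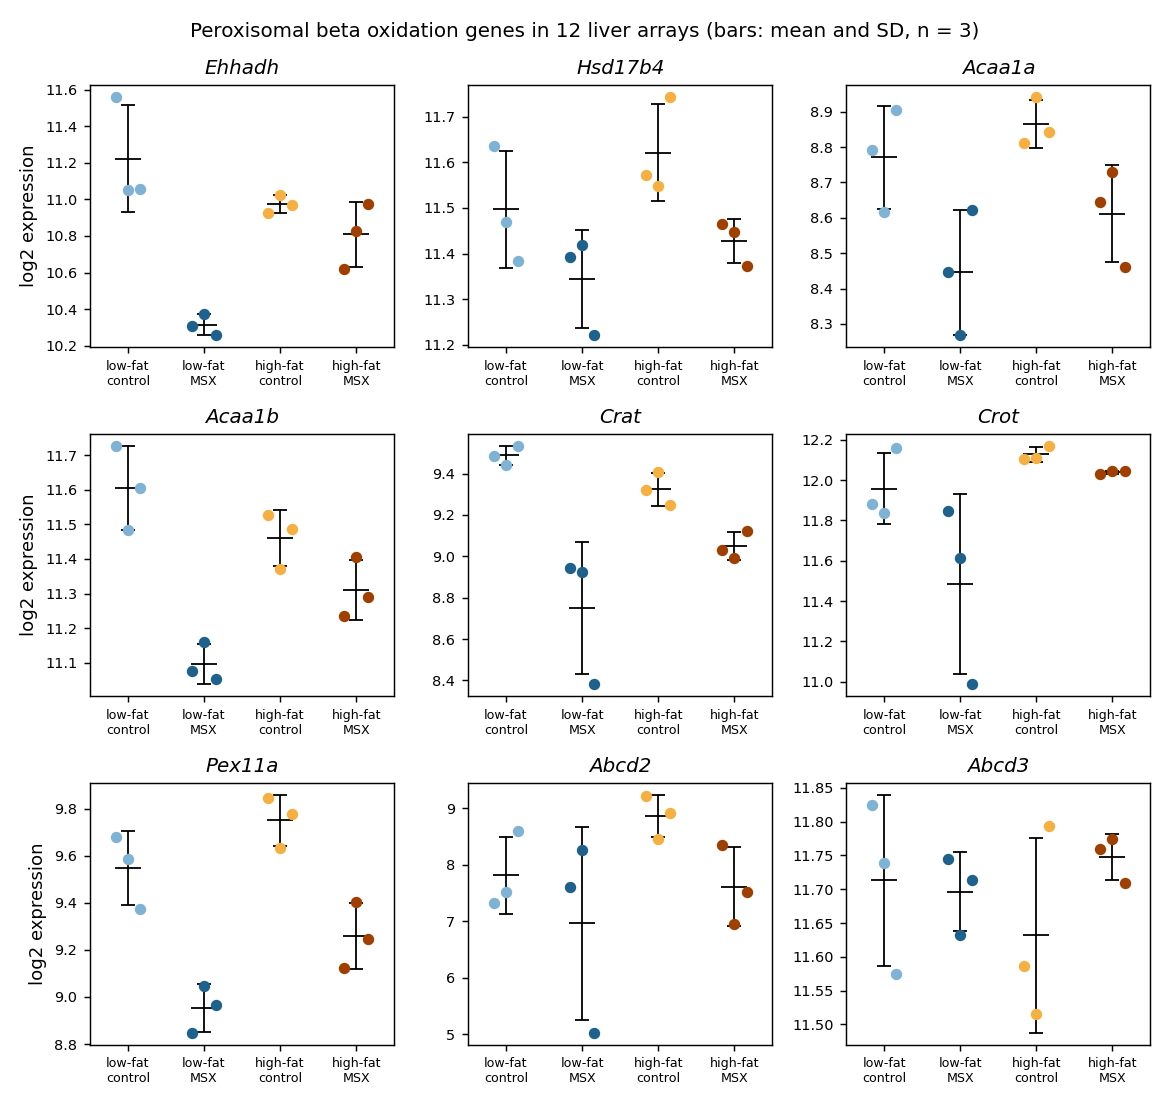
log2 expression (y axis, a scale of its own in each panel) of the 9 genes in the 4 groups of 3 arrays; points are arrays in the order of their replicate numbers, and black bars are the group mean and SD. For Ehhadh the low-fat MSX arrays (10.26 to 10.37) lie below all other arrays, and for Abcd3 the groups overlap.

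Of the bifunctional enzymes, Ehhadh passed the test on the low-fat diet and Hsd17b4 did not. Ehhadh was at 11.56, 11.05 and 11.06 in the low-fat control arrays and at 10.31, 10.37 and 10.26 in the low-fat MSX arrays. It was at 10.93, 11.03 and 10.97 in high-fat control and at 10.62, 10.83 and 10.98 in high-fat MSX. All 3 low-fat MSX arrays lay below the other 9 arrays, and the high-fat groups overlapped. Ehhadh fell by 0.91 on the log2 scale with the extract on the low-fat diet (SE 0.15, limma adjusted p = 0.0338), from 11.22 ± 0.29 to 10.31 ± 0.06 (SD, n = 3). Leaving out any 1 of the 6 arrays ended the call, with log2 fold changes from −0.996 to −0.741 and adjusted p from 0.0638 to 0.112. On the high-fat diet its log2 fold change was −0.17 (SE 0.15, adjusted p = 0.886). The extract effects of the diets differed by 0.74 (95% interval 0.30 to 1.19, limma adjusted p = 0.819). Hsd17b4, which also serves branched-chain acids and bile acid intermediates, had its lowest array at 11.22 in low-fat MSX and its highest at 11.74 in high-fat control. Its log2 fold changes with the extract were −0.15 (95% interval −0.40 to 0.09) on the low-fat diet and −0.19 (−0.44 to 0.05) on the high-fat diet, neither past the test. On the high-fat diet the 3 MSX arrays of Hsd17b4 (11.37 to 11.46) lay below the 3 control arrays (11.55 to 11.74).

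Neither thiolase passed the test. Acaa1b was at 11.73, 11.48 and 11.61 in low-fat control and at 11.08, 11.16 and 11.05 in low-fat MSX, and those groups did not overlap. In high-fat control it was at 11.53, 11.37 and 11.49, and in high-fat MSX at 11.23, 11.40 and 11.29, and these overlapped. The log2 fold change of Acaa1b was −0.51 (SE 0.11, adjusted p = 0.122) on the low-fat diet and −0.15 (SE 0.11, adjusted p = 0.844) on the high-fat diet. Acaa1a lay between 8.62 and 8.90 in low-fat control and between 8.27 and 8.62 in low-fat MSX, with 1 array of each group overlapping at 8.62. Its log2 fold changes were −0.32 (SE 0.13, adjusted p = 0.545) on the low-fat diet and −0.25 (SE 0.13, adjusted p = 0.75) on the high-fat diet, where the arrays of both groups stayed apart. Paralogs of this kind can share probes, and whether these probe sets cross-hybridise was not tested.

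Both carnitine acyltransferases had their lowest value in 1 array, low-fat MSX replicate 3. Crat was at 9.49, 9.44 and 9.53 in low-fat control and at 8.95, 8.92 and 8.38 in low-fat MSX. In high-fat control it was at 9.32, 9.41 and 9.25, and in high-fat MSX at 9.03, 8.99 and 9.12. No group of Crat overlapped with its neighbour: low-fat MSX was lowest, then high-fat MSX, high-fat control and low-fat control. The log2 fold change with the extract was −0.74 (SE 0.14, adjusted p = 0.0774) on the low-fat diet and −0.28 (SE 0.14, adjusted p = 0.75) on the high-fat diet. Without low-fat MSX replicate 3 the low-fat value was −0.55 (adjusted p = 0.143). The dimmer probe set of Crat, at a mean of 5.73 against 9.15, had log2 fold changes of −0.28 (SE 0.15) on the low-fat diet and 0.00 (SE 0.15) on the high-fat diet.

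Crot was at 11.88, 11.84 and 12.16 in low-fat control and at 11.85, 11.61 and 10.99 in low-fat MSX. High-fat control arrays were at 12.10, 12.11 and 12.17, and high-fat MSX arrays at 12.03, 12.04 and 12.04. The low-fat groups overlapped, with a wide spread in the MSX arrays, whereas the high-fat groups were tight and lay apart by a small step. The log2 fold change of Crot was −0.47 (SE 0.18, adjusted p = 0.511) on the low-fat diet, −0.23 without low-fat MSX replicate 3 (adjusted p = 0.73), and −0.09 (SE 0.18, adjusted p = 0.973) on the high-fat diet.

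Pex11a, the division factor, passed the test for the extract averaged over both diets. Its values were 9.68, 9.59 and 9.37 in low-fat control and 8.85, 9.05 and 8.96 in low-fat MSX. In high-fat control it was at 9.84, 9.63 and 9.78, and in high-fat MSX at 9.12, 9.40 and 9.25. On each diet every MSX array lay below every control array. The log2 fold changes were −0.59 (SE 0.12, adjusted p = 0.111) on the low-fat diet and −0.49 (SE 0.12, adjusted p = 0.36) on the high-fat diet, and they differed by 0.10 (95% interval −0.28 to 0.48). Averaged over both diets, Pex11a fell by 0.54 with the extract (SE 0.09, limma adjusted p = 0.0182), from 9.55 ± 0.16 and 9.75 ± 0.11 in the controls to 8.95 ± 0.10 and 9.26 ± 0.14 (SD, n = 3 each). The call was lost in 6 of 12 cases with 1 array left out, with adjusted p up to 0.0648 and log2 fold changes in those cases from −0.54 to −0.51. Those arrays were replicates 1 and 2 of low-fat control, 1 and 3 of high-fat control, and replicate 1 of either MSX group.

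Of the 9 members, the transporter genes had the widest and the narrowest range over the 12 arrays, 4.19 log2 units for Abcd2 and 0.31 for Abcd3. Abcd2, known from adipose tissue and brain, was at 7.32, 7.52 and 8.59 in low-fat control and at 7.60, 8.27 and 5.03 in low-fat MSX. In high-fat control it was at 9.21, 8.46 and 8.91, and in high-fat MSX at 8.35, 6.96 and 7.52. The low-fat groups overlapped, and low-fat MSX replicate 3 lay far below the other 11 arrays. The log2 fold changes with the extract were −0.85 (SE 0.64, adjusted p = 0.782) on the low-fat diet and −1.25 (SE 0.64, adjusted p = 0.75) on the high-fat diet, where the groups did not overlap. Without low-fat MSX replicate 3 the low-fat value turned to 0.12 (adjusted p = 0.97). Abcd3, the abundant transporter PMP70 of liver peroxisomes, lay between 11.52 and 11.79 in high-fat control, the widest of its groups, and the 4 groups overlapped. Its log2 fold changes with the extract were −0.02 (95% interval −0.26 to 0.23) on the low-fat diet and 0.12 (−0.13 to 0.36) on the high-fat diet.

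Counted together, 1 of the 9 members passed the threshold (adjusted p under 0.05) for the extract on the low-fat diet, against 0.158% of all 22180 genes (35). At an unadjusted p under 0.05 the count was 6, against 8.05% of all genes, and all 6 had log2 fold changes below 0. All 9 log2 fold changes were below 0 (50.3% of all genes), with a median of −0.51 against 0.00 for all genes, and 4 members (Ehhadh, Acaa1b, Crat and Pex11a) had MSX arrays wholly below the controls (6.73% of all genes). Without low-fat MSX replicate 3 the members' median was −0.41, with 8 of 9 below 0. In the same comparison 10 of 10 stellate and matrix markers had log2 fold changes above 0 (median 0.22). Their summed level was 2178 to 2553 in control and 2458 to 2947 with extract. Of the endothelial markers 10 of 10 were above 0 (median 0.25, summed level 3024 to 4040 and 3547 to 4289). Macrophage and Kupffer cell markers were above 0 in 11 of 12 cases (median 0.30). Of these markers 0 passed the threshold in the limma fit, and 1, 2 and 1 had an unadjusted p under 0.05. Cholangiocyte markers were above 0 in 6 of 8 cases (median 0.19). Adipocyte markers were above 0 in 3 of 6 cases and lymphocyte markers in 5 of 9, with a median of 0.02 for both. The part of all these markers in the members' values was not tested.

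For the extract on the high-fat diet, 0 of 9 passed in the limma fit (0.0361% of all genes) and 1, Pex11a, had an unadjusted p under 0.05 (6.99%). The median was −0.19 against 0.01 for all genes, with 8 of 9 below 0 (48.4% of all genes) and Abcd3 above it. Of the markers of other liver cells, 8 of 10 stellate and matrix markers were also below 0 there (median −0.41, 4 at an unadjusted p under 0.05, summed level 2481 to 4052 in control and 2000 to 2722 with extract), as were 5 of 8 cholangiocyte markers (median −0.18, 3 at an unadjusted p under 0.05, 350 to 621 and 457 to 557). The highest control sums, 4052 and 621, both came from high-fat control replicate 1. By contrast, 8 of 10 endothelial markers (median 0.13) and 4 of 6 adipocyte markers (median 0.17) were above 0. Macrophage and Kupffer cell markers split into 6 above and 6 below 0, and 6 of 9 lymphocyte markers were below 0 (median −0.04). None of these markers passed the threshold (0 in the limma fit), and their part in the members' values was not tested. In 6 members (Hsd17b4, Acaa1a, Crat, Crot, Pex11a and Abcd2) the MSX arrays lay wholly below the controls, where 5.51% of all genes did. The average extract effect had 1 of 9 past the threshold (0.261% of all genes) and 7 with an unadjusted p under 0.05 (9.66%), all of them lower, which left out Hsd17b4 and Abcd3. The difference of both extract effects had 0 of 9 past the threshold in the same fit (0% of all genes) and 3, Ehhadh, Acaa1b and Crat, with an unadjusted p under 0.05 (5.09%). Of these, Acaa1b differed by 0.36 (95% interval 0.02 to 0.69) and Crat by 0.46 (0.03 to 0.89), both with adjusted p = 0.955. These comparisons share their control or treated arrays, so that they are no independent support for one another.

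**Figure D2:**
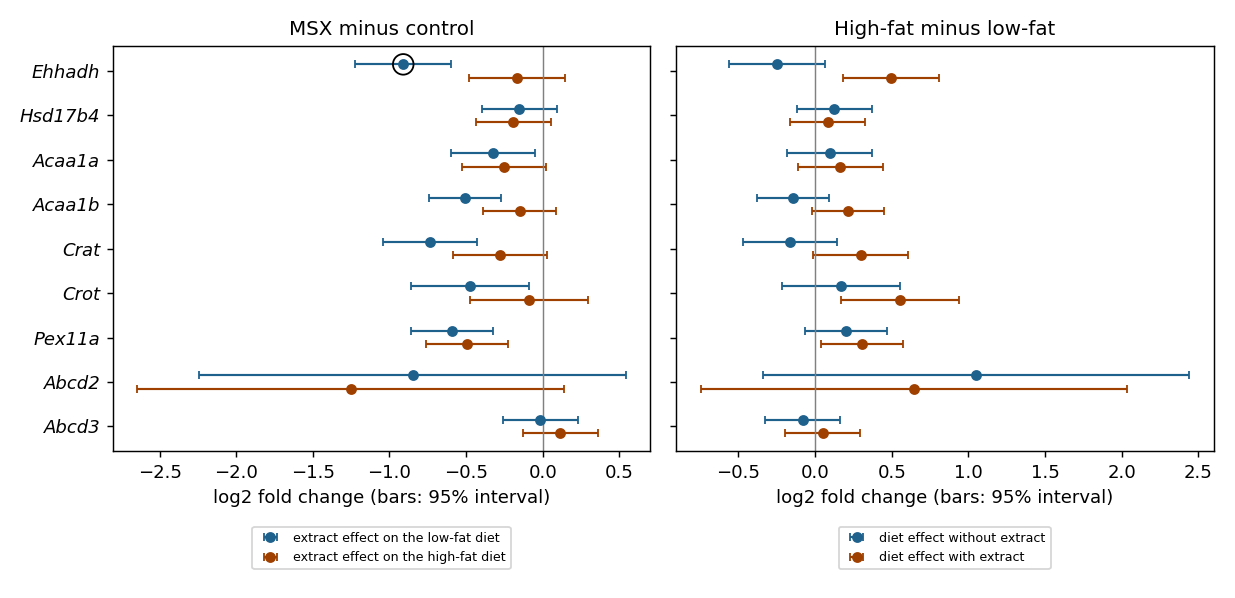
log2 fold changes (x axis) of the 9 genes with 95% intervals from the limma fit, for the extract on each diet (left) and for the diet without and with extract (right); the circle marks the value past the adjusted threshold. Ehhadh lies at −0.91 with the extract on the low-fat diet and at −0.17 on the high-fat diet, and the intervals of Abcd2 are the widest.

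Between the diets, 0 members passed with or without extract. In the control groups 0 of 9 passed the threshold (0.0180% of all genes) and 0 had an unadjusted p under 0.05 (6.78%). The median was 0.09 on the log2 scale, from −0.25 for Ehhadh to 1.05 for Abcd2 (SE 0.64, adjusted p = 0.803). Ehhadh and Crat had high-fat control arrays wholly below the low-fat control arrays, as 6.10% of all genes did, with log2 fold changes of −0.25 (95% interval −0.56 to 0.07) and −0.16 (−0.47 to 0.14). With extract in both diets, 0 of 9 passed (0% of all genes) and 3, Ehhadh, Crot and Pex11a, had an unadjusted p under 0.05 (4.56%). All 9 log2 fold changes were above 0 there (50.5% of all genes), with a median of 0.30, and 5 members (Ehhadh, Acaa1b, Crat, Crot and Pex11a) had high-fat MSX arrays wholly above the low-fat MSX arrays (4.68% of all genes). Crot was at 0.56 (SE 0.18, adjusted p = 0.999) and Ehhadh at 0.50 (SE 0.15, adjusted p = 0.977). Without low-fat MSX replicate 3 the median was 0.19, with Crot at 0.31, Crat at 0.11 and Abcd2 at −0.32. Stellate and matrix markers were below 0 in 9 of 10 cases between the diets with extract (median −0.29, 1 at an unadjusted p under 0.05) and above 0 in 9 of 10 without extract (median 0.52, 4 at an unadjusted p under 0.05), with 0 past the threshold in either limma comparison. The summed level of these markers in high-fat control was 4052 for replicate 1, 2481 for replicate 2 and 2661 for replicate 3. In low-fat control it was 2178 to 2553. Other markers above 0 without extract were 11 of 12 of macrophages and Kupffer cells (median 0.29) and 7 of 8 of cholangiocytes (0.32). The counts were 8 of 10 for endothelial (0.10), 7 of 9 for lymphocyte (0.24) and 4 of 6 for adipocyte markers (0.04). Hepatocyte markers were below 0 in 9 of 14 cases (median −0.05). The part of all these markers in the diet differences was not tested. Averaged over both extract states, 0 of 9 passed (0.0225% of all genes), and Crot and Pex11a, 2 of 9 against 5.94%, had an unadjusted p under 0.05, with log2 fold changes of 0.36 and 0.25.

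The members varied together across arrays to unequal degrees. Of 36 pairs, 31 had a Pearson correlation above 0 over the 12 arrays, with a median of 0.60, from −0.38 (Abcd2 with Abcd3) to 0.93 (Ehhadh with Acaa1b). With each group's mean removed the median was 0.14. Within groups the highest correlations joined Crat with Crot (0.88), Crot with Abcd2 (0.82) and Crat with Abcd2 (0.80), the genes whose lowest value lay in low-fat MSX replicate 3. That array held the lowest value of 6 members. There the median deviation of the list of PPAR alpha and other targets, described below, was −0.58. That was the lowest of the 12 arrays, while the median deviation of the hepatocyte markers was 0.00. The 8 cholangiocyte markers of low-fat MSX replicate 3 summed to 716, against 369 to 390 in low-fat control. They summed to 350 to 621 in high-fat control and 457 to 557 in high-fat MSX. The part of those cells in the values was not tested. These correlations share arrays and groups and are descriptive.

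**Figure D3:**
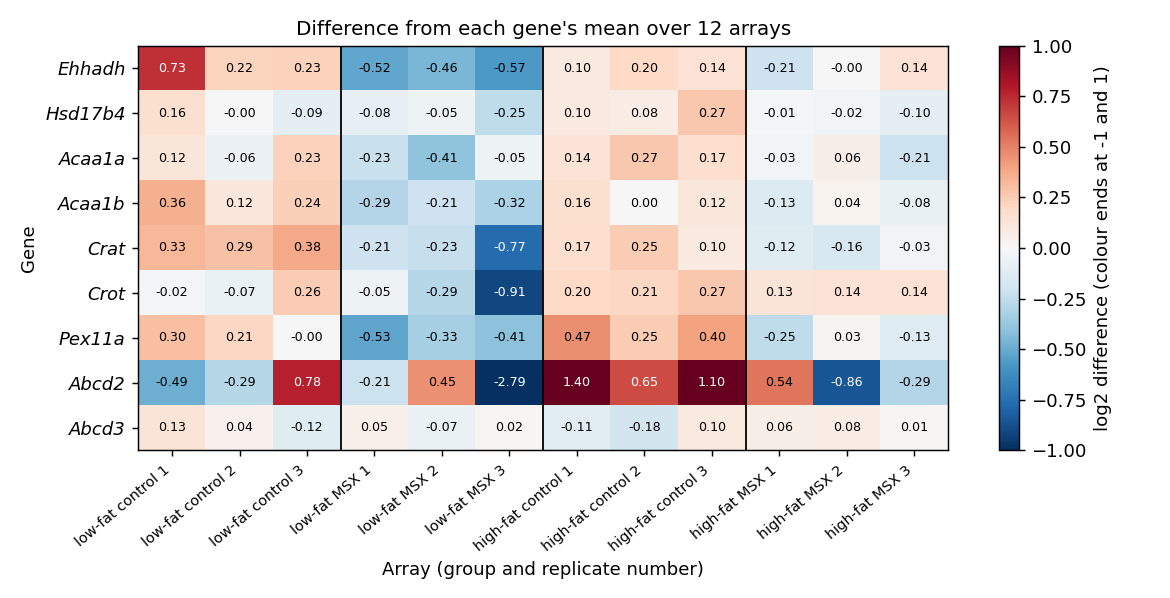
log2 value of each array (columns, by group and replicate number) minus the 12-array mean of that gene (rows), written in each cell and shown by colour. Low-fat MSX replicate 3 holds the lowest values of Crat (8.38 before the mean is taken off), Crot (10.99) and Abcd2 (5.03), and the row of Abcd3 stays near 0.

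By the mean of the 9 members, each scaled to mean 0 and SD 1, the genes of most similar pattern over the 12 arrays were Eci1 (r = 0.95), Acadm (0.94), Hadha (0.94), Slc25a10 (0.92) and Sqstm1 (0.91). Eci1, Acadm and Hadha are enzymes of mitochondrial beta oxidation, Slc25a10 carries dicarboxylates into mitochondria and Sqstm1 is an autophagy adaptor. For Ehhadh alone they were Phb2 (0.96), Retsat (0.92), Hadha (0.91), Kat8 (0.91) and Ddt (0.90). The likeness includes the differences between groups and was picked as the highest among all other genes.

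Further peroxisomal enzymes numbered 26 measured genes. Of the 26, 0 passed on either diet with the extract in the limma fit, with 9 at an unadjusted p under 0.05 on the low-fat diet and 6 on the high-fat diet. Their medians were 0.00 (low-fat) and 0.07 (high-fat), with 13 and 10 of 26 below 0. On the low-fat diet 9 had MSX arrays wholly below the controls (6.73% of all genes) and 3 wholly above. On the high-fat diet 3 lay wholly below (5.51% of all genes) and 10 wholly above. The share of all genes wholly above was not counted. Averaged over both diets, 1 rose and 0 fell: Nudt7, a peroxisomal hydrolase of coenzyme A, rose by 0.94 (SE 0.13, adjusted p = 0.00818), from 10.38 ± 0.06 to 11.17 ± 0.41 on the low-fat diet and from 10.34 ± 0.19 to 11.42 ± 0.24 on the high-fat diet (SD, n = 3). Nudt7 kept that call whichever of the 12 arrays was dropped, and on the single diets it was at 0.79 (low-fat, adjusted p = 0.188) and 1.09 (high-fat, adjusted p = 0.0897). Acot4, a peroxisomal thioesterase, was at −0.66 (SE 0.16, adjusted p = 0.215) with the extract on the low-fat diet, and Agxt, the glyoxylate aminotransferase, at −0.52 (SE 0.14, adjusted p = 0.264). On the high-fat diet Hao2 and Hao1, hydroxyacid oxidases, were at −1.05 (adjusted p = 0.189) and 0.48 (adjusted p = 0.566). Hao2 was dim, with group means from 3.04 in high-fat MSX to 4.10 in high-fat control, below the array medians (4.68 to 4.75). In the diet comparison without extract 0 of 26 passed and 4 had an unadjusted p under 0.05, and the lowest p belonged to Agxt (−0.63, adjusted p = 0.278), Hao2 (0.76, adjusted p = 0.491) and Phyh, the phytanoyl-CoA hydroxylase (−0.34, adjusted p = 0.508).

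Peroxins and related proteins import matrix enzymes and shape the organelle. Of 17 measured, 0 passed with the extract on either diet, and 1 and 0 had an unadjusted p under 0.05 on the low-fat and high-fat diet, with medians of −0.04 for both. Pex14, a docking protein of the import machinery, had the lowest p on the low-fat diet (−0.36, SE 0.15, adjusted p = 0.578), followed by Pex16 (−0.25) and Pxmp2 (−0.21), while Fis1, Pex3 and Pex6 had log2 fold changes of 0.15, 0.15 and 0.14 on the high-fat diet (adjusted p from 0.833 to 0.886). In the diet comparison without extract 0 passed and 0 had an unadjusted p under 0.05, with Pex2 at 0.32, Pex7 at 0.21 and Pxmp2 at −0.20.

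Mitochondrial beta oxidation and the carnitine shuttle had 18 measured genes, all with log2 fold changes below 0 on the low-fat diet with extract. There 0 rose and 1 fell, 10 had an unadjusted p under 0.05, and the median was −0.26. The gene that fell was Acot2, which encodes a thioesterase of mitochondria, at −1.49 (SE 0.25, adjusted p = 0.0442), while Eci1 and Acadm were at −0.50 (adjusted p = 0.164) and −0.47 (adjusted p = 0.233). On the high-fat diet 0 of 18 passed and 3 had an unadjusted p under 0.05, with a median of −0.05. There Acot2 was at −0.95 (adjusted p = 0.44), Acadm at −0.33 and Hadh at −0.31. With both diets averaged, all 18 were below 0 (median −0.16), 0 rose, 1 fell and 7 had an unadjusted p under 0.05. Acot2 was the gene that fell, by 1.22 (SE 0.18, limma adjusted p = 0.00925), and it kept that call whichever of the 12 arrays was dropped. Without extract 0 of 18 passed between the diets and 1 had an unadjusted p under 0.05, with Cpt1a, the gate of carnitine-dependent import, at −0.27, Decr1 at −0.21 and Hadh at 0.18.

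A list of Ppara, Rxra, Ppargc1a and targets of PPAR alpha had 18 measured genes. Of these, 0 rose and 4 fell on the low-fat diet with extract (median −0.36). On the high-fat diet 0 rose and 1 fell (median −0.41). Acot1, which encodes a thioesterase of the cytosol, fell by 1.96 on the low-fat diet (SE 0.16, adjusted p = 0.000286), and Cyp4a31, a cytochrome P450 of the fatty acid hydroxylase family, fell from 9.94 ± 0.28 to 8.34 ± 0.24 (SD, n = 3, limma adjusted p = 0.00137). Both kept their calls with any 1 array left out. Cyp4a14 and the hormone gene Fgf21 also fell, with log2 fold changes of −1.60 and −1.51 (adjusted p = 0.0492 for both), and lost their calls in all 6 cases with 1 array left out, with adjusted p up to 0.212. Acot2 lost its low-fat call in 4 of 6 cases (adjusted p up to 0.164). Cd36, the fatty acid translocase, fell by 1.70 on the high-fat diet (adjusted p = 0.0479) and lost that call in 5 of 6 cases (adjusted p up to 0.221). Pdk4, a kinase that restrains glucose oxidation, was at −1.38 there (adjusted p = 0.108), and Acot1 at −0.83 (adjusted p = 0.143). Averaged over both diets 0 rose and 6 fell: Acot1 (−1.39), Cd36 (−1.33), Pdk4 (−1.20), Cyp4a14 (−1.18), Fgf21 (−1.12) and Cyp4a31 (−1.03). Whether probe sets of related genes cross-hybridise, such as Acot1 with Acot2 or Cyp4a14 with Cyp4a31, was not tested. Cyp4a14 and Fgf21 kept that call in 7 of 12 cases with an array dropped (adjusted p up to 0.0721 and 0.0727), and the other 4 genes in all 12. In the diet comparison without extract 0 of 18 passed and 5 had an unadjusted p under 0.05, with Acot1 at −0.72, Cd36 at 0.97 and Fitm1, a lipid droplet protein, at 0.55 (adjusted p from 0.278 to 0.445).

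**Figure D4:**
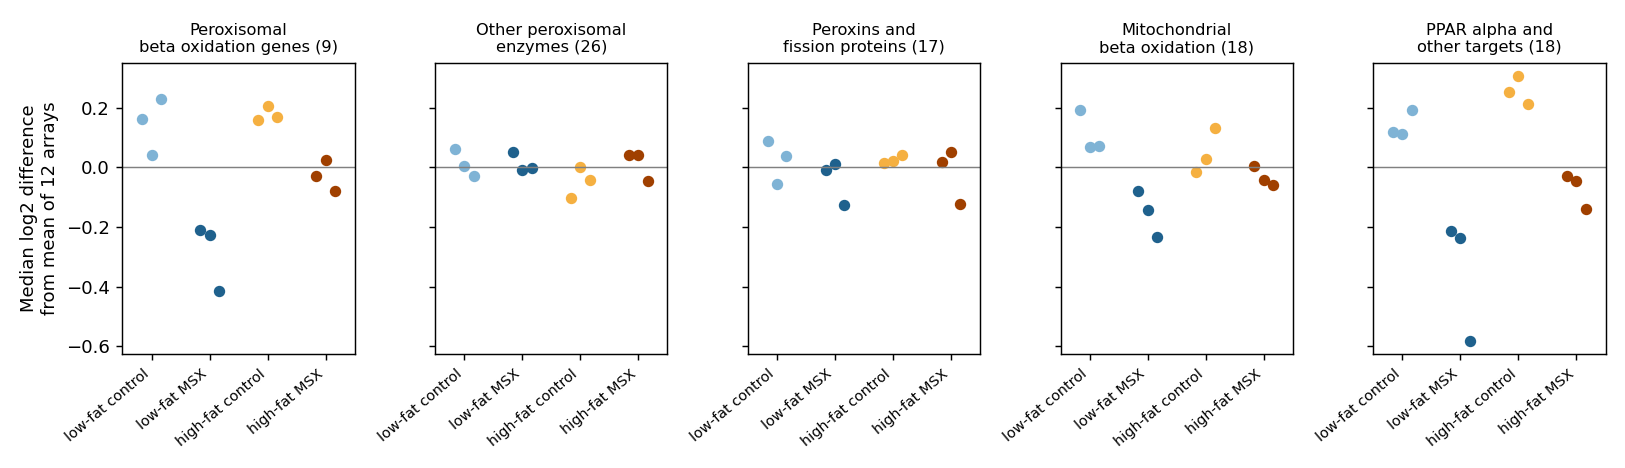
Median over the genes of a list of the log2 value minus that gene's 12-array mean (y axis), by group, with 1 point per array and the number of measured genes in each title. In the 9 peroxisomal genes the low-fat MSX arrays lie between −0.41 and −0.21 and the low-fat control arrays between 0.04 and 0.23. The median of the other peroxisomal enzymes stays between −0.10 and 0.06, which does not show genes that moved in opposite directions.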

How the data were processed

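The deposited log2 values are 1 number per probe set and array. The submitters' processing notes name the Transcriptome Analysis Console as the authors' tool, with its version, normalization and summarization not given in the sources used here. The values covered 41345 probe sets on 12 arrays and were used as deposited. The platform annotation gave 23521 probe sets 1 symbol and 1814 several, and the brightest probe set of each of 22180 genes was kept. A linear model was fitted with limma 3.58.1 under R 4.3.3 (two-sided moderated tests, lmFit and eBayes) in 1 design of 4 group means (8 residual and 5.18 prior degrees of freedom), with Benjamini-Hochberg adjustment over all genes and a threshold of 0.05. Fold changes are MSX minus control or high-fat minus low-fat. The procedure was tested on simulated data. The labels call the arrays biological replicates, and their number limits the precision: an exact permutation of 3 against 3 cannot go below p = 0.1. Members, lists and rules were chosen with earlier results of these data known. Named genes were all members, list genes past the threshold and the 3 of lowest p per list in the extract effects and in the diet effect without extract, plus the 5 genes of highest correlation. Alternatives were other normalizations, filters, variance models, a replicate block and left-out arrays. Some genes of these lists are not reported here.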

Additional observations from a re-analysis of the deposited data

Results flagged for a closer look

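Ehhadh and Crat had diet differences of opposite direction in the control and the extract groups, with no overlap of arrays in either: their high-fat arrays lay wholly below the low-fat arrays without extract and wholly above them with extract. The difference of the diet effects, which equals that of the extract effects, was 0.74 for Ehhadh (adjusted p = 0.819) and 0.46 for Crat (adjusted p = 0.955) in the limma fit, neither past the threshold over all genes.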

How the results depend on the processing

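For the extract on the low-fat diet, 1 member passed as reported. The count was 0 with the replicate block (35 genes became 20), where Ehhadh had adjusted p = 0.0836, 0 with the 2 groups alone (10 genes), where it had adjusted p = 0.179, and 0 in each of the 6 cases with 1 array left out (6 to 28 genes). It was 4 with genes above the median level (71 genes) and 4 with the trend and robust variance (77 genes), in both Ehhadh, Acaa1b, Crat and Pex11a. Averaging probe sets gave 23 genes. For the average extract effect, 1 member became 0 with the replicate block (Pex11a, adjusted p = 0.0539), 3 with quantile normalization, 4 with genes above the median level (173 genes), 4 with the trend and robust variance (151 genes) and 0 to 1 with an array left out (34 to 63 genes). Over all genes, the high-fat extract comparison gave 5 with the block, 19 above the median level, 28 with trend and robust variance, 2 with its groups alone and 2 to 6 with an array left out, and 0 members passed in any of these. The diet effect without extract gave 11 with either of the same filter and variance settings and 1 to 5 with an array left out, the average diet effect 11, 11 and 1 to 7, and the diet effect with extract and the difference of the extract effects 0 to 1. Signs turned only in values not past the threshold: Abcd3 with the extract on the low-fat diet was 0.0093 with arrays shifted to one median and −0.086 to 0.039 with an array left out, and Crat in the average diet effect was −0.024 with averaged probe sets and −0.025 to 0.12. Over left-out arrays, Abcd2 ranged from −1.50 to 0.12 for the extract on the low-fat diet, −0.32 to 1.30 for the diet with extract and −1.37 to 0.25 for the difference of the extract effects. In that difference Hsd17b4 ranged from −0.11 to 0.021 and Acaa1a from −0.018 to 0.16, and Abcd3 in the average diet effect from −0.056 to 0.014. The cause of these changes was not tested. The deviations from group means of 18 same-numbered pairs of arrays correlated between −0.13 and 0.11, 2 of them above 0.1. Both of these joined high-fat control with high-fat MSX (0.106 for replicate 1 and 0.112 for replicate 3), and replicate 2 of those groups was at 0.080. Whether same-numbered arrays shared more than a number was not tested.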
